A study of Mus musculus with 17 samples.

Results

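The 9 genes described here encode G protein–coupled receptors that raise or lower insulin secretion, or that have been linked to cyclic AMP in the β cell: *Glp1r*, *Gipr*, *Gcgr*, *Ffar1*, *Chrm3*, *Adra2a*, *Sstr3*, *Gpr26* and *Gpr135*. They were taken by gene symbol from 55357 annotated genes, and all 9 were among the 22784 genes with enough counts to be tested. The samples are sorted β cells of male mice in 4 groups. Control cells (labelled WT, from tdTomato mice, which per the study's methods also carried the RIP-Cre transgene) were measured in 3 samples at 2.8 mM glucose and 4 samples at 16.7 mM. Cells labelled PCBP2KO, from RIP-Cre;*Pcbp2* fl/fl mice with the same tdTomato reporter, were measured in 5 samples at each concentration. In every group whole islets were cultured for 72 h before tdTomato-positive cells were sorted, so the culture also held the other islet cells. The Cre transgene is driven by the rat insulin promoter, the reporter marks cells in which Cre has acted, and *Pcbp2*, which encodes a poly(C)-binding RNA-binding protein, is deleted only where Cre acts. Whether the replicate samples of a group came from separate animals is not given in the sources used here, so the p values below measure the spread between samples, which may in part be technical.

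β Cells read hormones, nutrients and nerve signals through receptors that act by different G proteins. The receptors for glucagon-like peptide 1 (*Glp1r*), glucose-dependent insulinotropic polypeptide (*Gipr*) and glucagon (*Gcgr*) couple to the stimulatory protein Gs, raise cyclic AMP and amplify secretion that glucose has started. The fatty acid receptor (*Ffar1*) and the muscarinic acetylcholine receptor (*Chrm3*) act mainly through Gq, phospholipase C and calcium, and the adrenergic (*Adra2a*) and somatostatin (*Sstr3*) receptors act through Gi proteins and restrain secretion. *Gpr26* and *Gpr135* encode orphan receptors, for which no ligand is agreed. *Gpr26* has been linked to cyclic AMP production.

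Each library held between 47385513 and 82419400 estimated counts. *Pcbp2* was lower in all PCBP2KO samples than in all control samples at the same glucose: it was 50.7 to 73.4 CPM in control and 15.5 to 19.2 CPM in PCBP2KO cells at 2.8 mM, and 35.0 to 45.4 against 5.81 to 10.03 CPM at 16.7 mM. CPM are counts relative to library size, scaled between libraries by trimmed mean of M values (TMM). All 10 β cell markers were detected in every group. Their summed level at 2.8 mM was 119043 to 123222 CPM in control and 67334 to 97381 CPM in PCBP2KO cells, without overlap. At 16.7 mM it was 272015 to 526064 CPM in control and 359038 to 475307 CPM in PCBP2KO cells. Much of this sum is *Ins2*, at 76095 to 82305 CPM in control and 40433 to 85258 CPM in PCBP2KO cells at 2.8 mM. With knockout at 2.8 mM *Ins1* (log2 fold change, -3.04) and *G6pc2* (-1.78) were called lower. The other β cell markers were not called, from -1.18 (*Mafa*) to 0.16 (*Slc30a8*). The study reports *Ins1* as lowered by *Pcbp2* deficiency under basal conditions. Whether the sum reflects β cell purity was not tested. The summed level of 6 α cell markers was 892 to 2781 CPM in control and 1824 to 9650 CPM in PCBP2KO cells at 2.8 mM, and 611 to 1700 against 1058 to 1887 CPM at 16.7 mM. Those of δ and pancreatic polypeptide cells were likewise highest in PCBP2KO cells at 2.8 mM (481 to 1320 and 1431 to 7425 CPM). Sums of 5 markers each were 384 to 1185 CPM for ductal cells, 21.1 to 168 CPM for macrophages, and at most 1.27 and 1.20 CPM for endothelial and stellate cells over all samples, and 8 acinar markers summed to at most 26.1 CPM. Of the 5 ductal markers 3 averaged at least 1 CPM in each control group and 2 in each PCBP2KO group. The ductal list includes *Cftr*, which the study reports as lowered by *Pcbp2* deficiency in these β cells. The median macrophage sum was 125 and 86.1 CPM in control and 115 and 35.4 CPM in PCBP2KO cells at 2.8 and 16.7 mM. Along the first principal component of all genes 3 libraries stood apart from their groups, toward the low glucose samples: replicate 4 of the control cells and replicates 4 and 5 of the PCBP2KO cells, all at 16.7 mM. Calls of the 9 receptors that change without them are given in both forms.

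The receptors differed widely in abundance per transcript length, given as the deposited TPM (transcript counts relative to length and to the library), which allows genes to be ordered within a sample. *Glp1r* was the most abundant, with a median of 84.1 TPM (range, 58.6 to 183) over the 17 samples, and stood above every other member in all 17. *Gipr* (20.7 TPM), *Sstr3* (20.5 TPM) and *Gcgr* (19.6 TPM) followed with near-equal medians over the 17 samples. *Gipr* was above *Sstr3* in 7 of 17 samples, with both orders found in every group. The order of *Sstr3* and *Gcgr* went with the group: *Sstr3* was the higher in all 3 control samples (medians, 31.1 and 15.0 TPM) and all 5 PCBP2KO samples at 2.8 mM, and *Gcgr* in all 5 PCBP2KO samples at 16.7 mM (medians, 27.6 and 16.99 TPM). The place of *Gipr* rests on short transcripts that are not annotated as coding, since its coding transcript alone had a median of 4.45 TPM, against 19.9 for that of *Sstr3* and 14.9 for that of *Gcgr*. *Gcgr* was above *Ffar1* (6.12 TPM) in all 17 samples, whereas *Ffar1* was above *Chrm3* (3.67 TPM) in 10. The receptors *Gpr135* (1.14 TPM) and *Adra2a* (0.728 TPM) came next, with *Gpr135* the higher of the pair in 11 samples, and *Gpr26* was last in all 17 samples with a median of 0.0204 TPM. In the control samples *Gpr26* ranged from 0.0564 to 0.616 TPM, so even there it was the least abundant member.

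**Figure D1:**
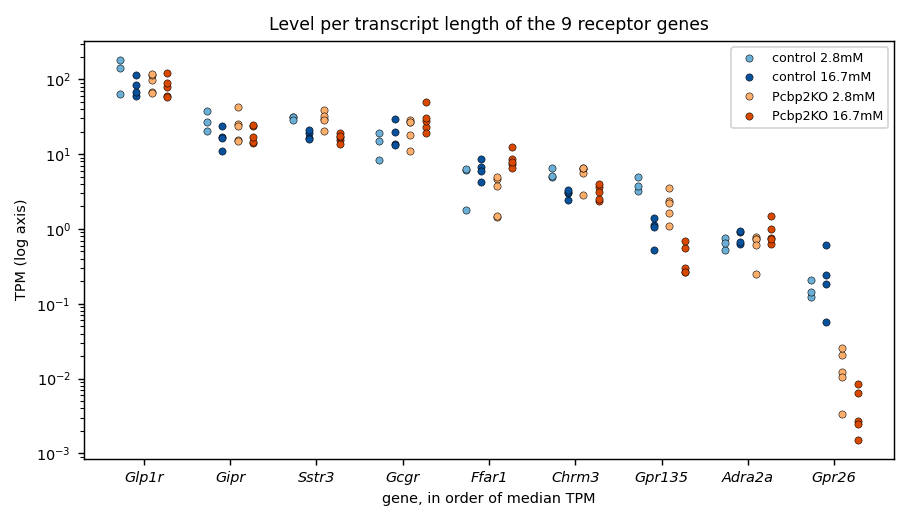
Abundance of the 9 receptor genes in TPM (log axis) in each of 17 samples, with the genes in order of their median and the 4 groups side by side in colour. *Glp1r* lies at 58.6 TPM or more in every sample, *Gipr*, *Sstr3* and *Gcgr* overlap, and the PCBP2KO samples of *Gpr26* fall below its control samples.

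All positions are those of GENCODE vM39 on mouse genome build GRCm39. *Glp1r* lies on chromosome 17 (31120525 to 31159765, forward strand), *Gcgr* on chromosome 11 (120413696 to 120429815, forward strand) and *Gipr*, *Ffar1* and *Gpr26* on chromosome 7. An exon of *Glp1r* overlaps the antisense lncRNA *Gm10503*, and an exon of *Gcgr* the antisense lncRNA *Gm11789*, both of which were also counted in the deposited files. Whether the counting used strand is not given in the sources used here, so reads from such pairs cannot be told apart with certainty. *Gm10503* reached at most 8.01 CPM against at least 381 CPM of *Glp1r*, but *Gm11789* reached 22.4 CPM, and *Gcgr* itself ranged from 16.6 to 171 CPM. Antisense lncRNAs annotated over exons of *Ffar1*, *Adra2a* and *Gpr135* were not counted separately in the files.

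The first question was how 72 h at high glucose alters the receptor genes of control cells. In that comparison 2 of the 9 members passed the test, for which edgeR's quasi-likelihood fit had to give more than a 1.5-fold difference at an adjusted p (Benjamini-Hochberg, over all genes tested) below 0.05. *Gcgr* was higher and *Gpr135* lower at 16.7 mM. Over all genes tested, 13.8% were called in this comparison (7.15% higher and 6.69% lower), and 2 of 9 members is not far from that share. The median log2 fold change of the members was 0.09, beside 0.04 for all genes.

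*Gcgr*, the glucagon receptor, was at 29.0, 16.6 and 34.8 CPM in the 3 control samples at 2.8 mM and at 57.8, 45.4, 62.2 and 77.0 CPM in the 4 at 16.7 mM. No sample at 16.7 mM fell as low as any at 2.8 mM, and the fitted log2 fold change was 1.17 ± 0.32 (SE, adjusted p = 0.0177). The antisense *Gm11789* also rose in this comparison (log2 fold change, 2.45 ± 0.42, adjusted p = 0.00146). The call for *Gcgr* was lost without control replicate 1 at 2.8 mM (adjusted p = 0.0515) or replicate 2 (adjusted p = 0.109), and when libraries were scaled by total counts alone (0.80, adjusted p = 0.115).

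*Gpr135* went the other way. Its level was 10.6, 17.1 and 11.5 CPM at 2.8 mM and 3.66, 6.86, 5.78 and 6.14 CPM at 16.7 mM, again with no overlap between the groups, and the log2 fold change was -1.22 ± 0.35 (adjusted p = 0.0253). Leaving out control replicate 2 at 2.8 mM, or control replicate 1 or 3 at 16.7 mM, ended this call (adjusted p = 0.142, 0.0728 and 0.0552).

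*Ffar1*, which answers to long-chain fatty acids, read 27.7, 8.17 and 26.8 CPM at 2.8 mM and 63.8, 34.4, 44.4 and 51.1 CPM at 16.7 mM. *Adra2a* read 3.50, 2.46 and 2.78 CPM at 2.8 mM and 8.02, 4.68, 6.48 and 4.02 CPM at 16.7 mM. Neither gene's groups overlapped, so 4 of 9 members had groups apart, where 24.1% of all genes did, yet both missed the threshold. Their log2 fold changes were 1.21 ± 0.43 (adjusted p = 0.061) and 0.99 ± 0.35 (adjusted p = 0.0632). *Gpr26* was at 1.60, 1.92 and 2.56 CPM and then at 5.01, 5.66, 13.2 and 0.968 CPM. Its groups overlapped through replicate 4 at 16.7 mM, one of the libraries that stand apart, and the difference did not pass the test (log2 fold change, 1.61 ± 0.65, adjusted p = 0.102). Without the 3 libraries that stand apart *Gpr26* (1.94, adjusted p = 0.0105) and *Adra2a* (1.11, adjusted p = 0.0265) were called, and *Ffar1* was not (1.16, adjusted p = 0.0857).

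In this comparison, and in no other, the deviations of every pair of samples with the same replicate number correlated above 0.1 across genes. The strongest same-numbered pair lay in another comparison. It was replicate 4 of the control and PCBP2KO cells at 16.7 mM (r = 0.354), both among the libraries that stand apart. With the replicate number as a block the number of members called went from 2 to 5: *Ffar1* (log2 fold change, 1.36, adjusted p = 0.00496), *Adra2a* (1.01, adjusted p = 0.0118) and *Gpr26* (1.61, adjusted p = 0.042) joined *Gcgr* and *Gpr135*. At 2.8 mM replicate 2 was the sample with the lowest *Ffar1* in both genotypes, at 8.17 and 5.82 CPM. The other 4 members were *Glp1r*, *Gipr*, *Chrm3* and *Sstr3*, whose log2 fold changes lay between -0.18 and 0.09 with adjusted p from 0.644 to 0.982. The signs of *Glp1r*, *Gipr* and *Sstr3* turned negative when libraries were scaled by total counts alone.

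That scaling shifts the whole transcriptome. The insulin gene *Ins2* took 8.90 to 9.03% of counts in control cells at 2.8 mM and 18.2 to 25.7% at 16.7 mM (4.92 to 10.4% and 20.7 to 24.7% in PCBP2KO cells). With total counts the median log2 fold change of all genes was -0.346 for glucose in control cells and -0.465 in PCBP2KO cells, and the genes called higher and lower went from 1629 and 1524 to 782 and 4055 in control cells, and from 3056 and 2375 to 1482 and 6369 in PCBP2KO cells. Against that shift *Glp1r* (-0.29), *Gipr* (-0.39) and *Sstr3* (-0.40) sat near the median gene.

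**Figure D2:**
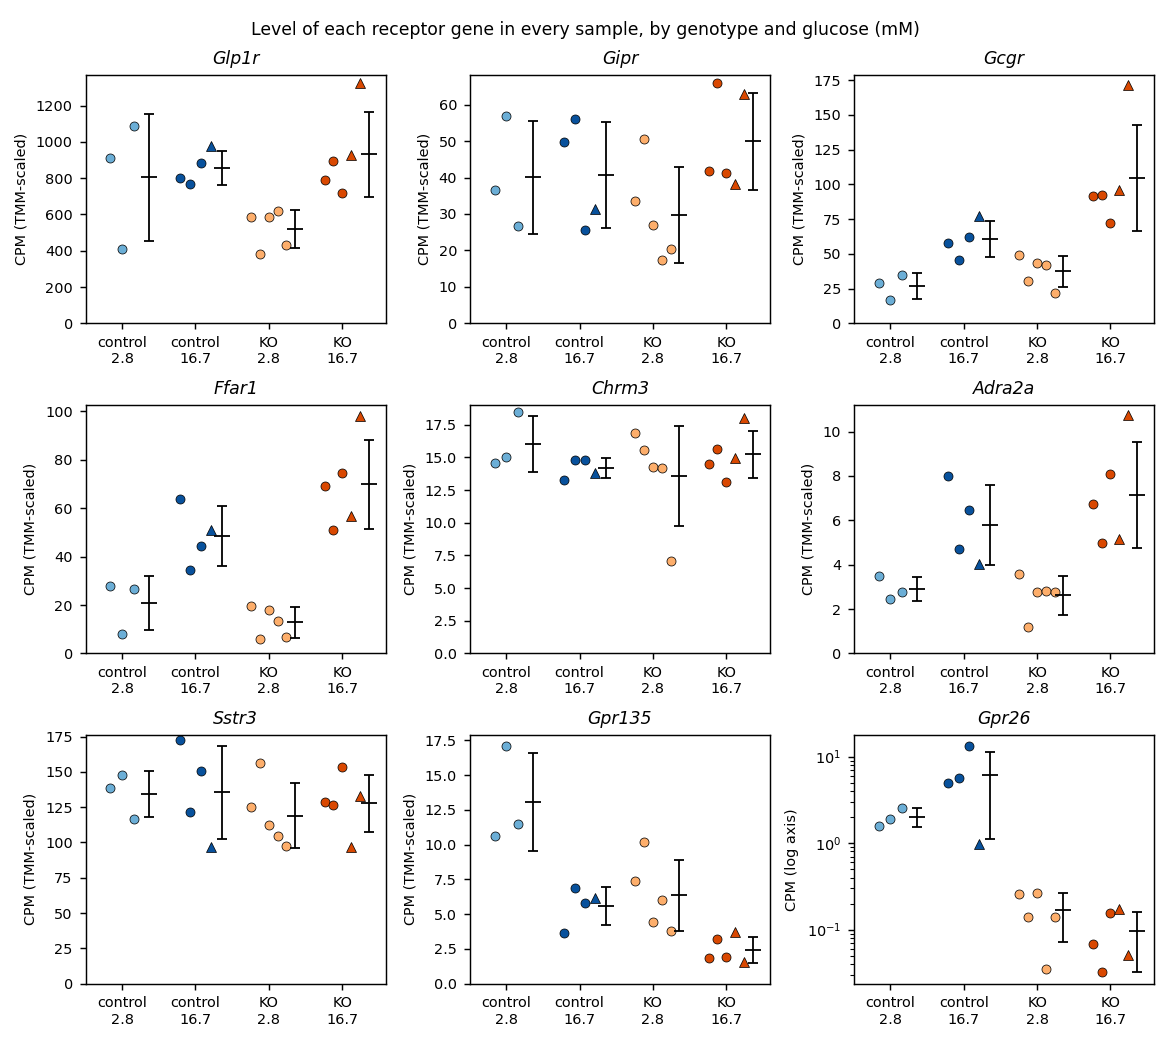
CPM of each receptor gene in every sample (points, triangles for the 3 libraries that stand apart), with the mean and SD of each group beside them, for control and PCBP2KO (KO) cells at 2.8 and 16.7 mM glucose. The *Gpr26* axis is logarithmic, and its PCBP2KO samples (0.0321 to 0.265 CPM) all lie below its control samples (0.968 to 13.2 CPM).

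The same question was asked of PCBP2KO cells, where 5 of 9 members were called: *Glp1r*, *Gcgr*, *Ffar1* and *Adra2a* were higher and *Gpr135* was lower at 16.7 mM. The background was also larger here, with 23.8% of all genes called (13.4% higher and 10.4% lower). The groups of the same 5 members did not overlap, as was so for 21.6% of all genes. The median log2 fold change of the members was 0.75, beside 0.01 for all genes.

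*Ffar1* had the largest change of the 9. It was at 19.8, 5.82, 17.97, 13.6 and 6.95 CPM at 2.8 mM and at 69.2, 50.8, 74.5, 56.8 and 98.1 CPM at 16.7 mM. The fitted difference was 5.45-fold (log2 fold change, 2.45 ± 0.36, adjusted p = 8.27e-05), and every sample at 16.7 mM was above every sample at 2.8 mM.

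*Adra2a*, through which catecholamines restrain the β cell, was at 3.59, 1.17, 2.79, 2.81 and 2.77 CPM at 2.8 mM and at 6.72, 4.96, 8.10, 5.14 and 10.7 CPM at 16.7 mM (log2 fold change, 1.44 ± 0.29, adjusted p = 0.00109). *Gcgr* was at 49.4, 30.1, 43.5, 42.0 and 21.8 CPM and then at 91.2, 92.3, 72.3, 95.7 and 171 CPM (log2 fold change, 1.48 ± 0.26, adjusted p = 0.000348). The groups of neither gene overlapped. The α cell marker sum, which moved the other way (1824 to 9650 CPM at 2.8 mM and 1058 to 1887 CPM at 16.7 mM), was not tested for its part in these differences. *Gpr135* fell from 7.37, 10.2, 4.40, 5.98 and 3.76 CPM to 1.85, 3.19, 1.92, 3.70 and 1.53 CPM (log2 fold change, -1.38 ± 0.30, adjusted p = 0.00207), so its highest sample at 16.7 mM came close to its lowest at 2.8 mM without reaching it.

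Of the incretin receptors *Glp1r* was called and *Gipr* was not, at similar log2 fold changes that were not tested against each other. *Glp1r* was at 583, 381, 587, 618 and 432 CPM at 2.8 mM and at 789, 894, 720, 926 and 1324 CPM at 16.7 mM, with no overlap between the groups. Its log2 fold change of 0.84 ± 0.22 (adjusted p = 0.00821) missed the threshold without the 3 libraries that stand apart (0.58, adjusted p = 0.0755) and with total counts (0.37, adjusted p = 0.261). In TPM, which are not scaled between libraries by TMM, the mean of *Glp1r* did not rise (92.8 at 2.8 mM and 81.6 at 16.7 mM). *Gipr* was at 33.4, 50.6, 27.02, 17.4 and 20.4 CPM and at 41.7, 65.8, 41.2, 38.2 and 63.0 CPM. All 5 same-numbered pairs were higher at 16.7 mM, but the groups overlapped and the difference did not pass the test (log2 fold change, 0.75 ± 0.29, adjusted p = 0.062). *Gipr* was called in 4 of 25 alternatives, among them the fit with the replicate number as a block.

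The Gq-coupled *Chrm3* and the Gi-coupled *Sstr3* stayed within narrow ranges of CPM. *Chrm3* lay between 13.1 and 18.5 CPM in every sample but 1, replicate 5 of the PCBP2KO cells at 2.8 mM (7.07 CPM). *Sstr3* lay between 96.6 and 172 CPM in all 17. In TPM, which are not scaled between libraries by TMM, the means of both genes were lower at 16.7 mM. For *Chrm3* they went from 5.52 to 2.99 in control and from 5.54 to 3.13 in PCBP2KO cells. For *Sstr3* they went from 30.4 to 18.1 and from 29.8 to 16.6. Their log2 fold changes for glucose in PCBP2KO cells were 0.17 ± 0.18 and 0.10 ± 0.16 (adjusted p = 0.544 and 0.707), and both turned negative with total counts (-0.30 and -0.38), where the median gene moved by more. The difference of *Gpr26* with glucose in PCBP2KO cells did not pass the test (log2 fold change, -0.81 ± 0.63, adjusted p = 0.373), at levels of 2 to 25 counts per library.

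Whether the response to glucose depended on genotype was tested as an interaction, in which 1 of 22784 genes was called (0.00439%) and no member, with an adjusted p of 0.99997 for each. The largest fitted interactions among the members were those of *Gpr26* (-2.42 ± 0.90), *Ffar1* (1.23 ± 0.54) and *Glp1r* (0.75 ± 0.35), none of which passed. DESeq2 called 0 of 9 as well. The 2 glucose comparisons thus give different counts of members called without a shown difference between genotypes.

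**Figure D3:**
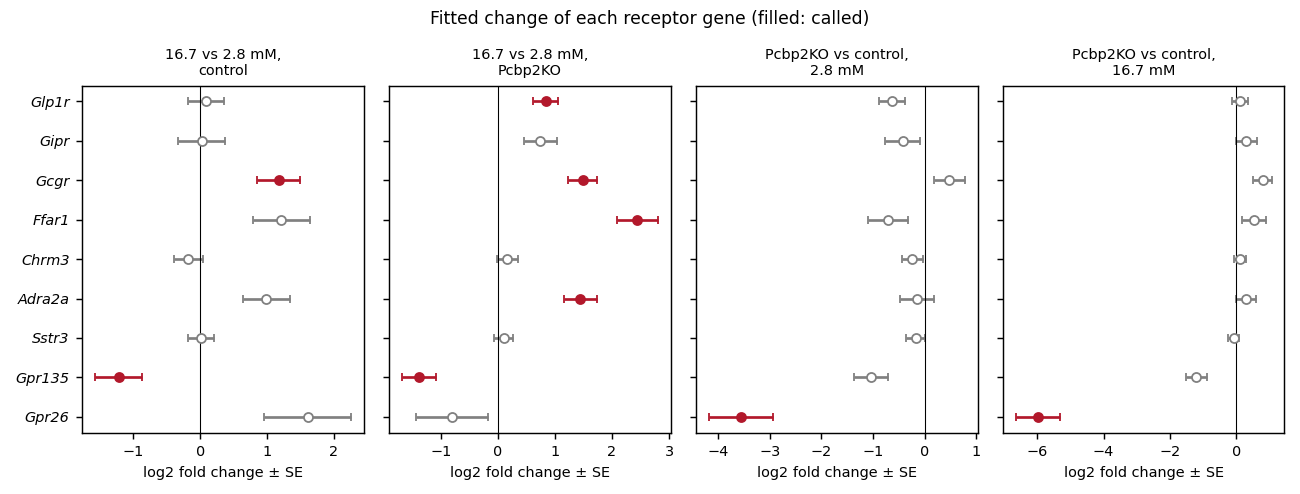
Log2 fold change (point) and SE (bar) of each receptor gene in 4 comparisons, from a fit of all 17 samples; filled red points passed the test. With glucose 2 members passed in control cells and 5 in PCBP2KO cells, and with knockout only *Gpr26* passed, at -3.55 (2.8 mM) and -5.98 (16.7 mM).

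The second question was what the loss of *Pcbp2* does to the receptor genes at each glucose concentration. At both, 1 member of 9 was called, and it was *Gpr26*, which was lower in PCBP2KO cells. At 2.8 mM 2.04% of all genes were called (1.78% lower) and at 16.7 mM 1.71% (1.42% lower). Groups that did not overlap were found for *Gpr26* and *Gpr135* at 2.8 mM, both lower, where 6.88% of all genes were lower and 4.06% higher in that way, and for *Gpr26* alone at 16.7 mM, where 2.64% of all genes were lower and 4.49% differed in either direction. *Gpr26* and *Gpr135* are among the genes that the study itself named for loss of *Pcbp2*, so their values here are not independent evidence. The control samples are shared between the knockout comparisons and those of glucose.

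*Gpr26* was at 1.60, 1.92 and 2.56 CPM in control cells at 2.8 mM and at 0.257, 0.141, 0.265, 0.0347 and 0.140 CPM in PCBP2KO cells. At 16.7 mM it was at 5.01, 5.66, 13.2 and 0.968 CPM in control and at 0.0684, 0.0321, 0.154, 0.174 and 0.0514 CPM in PCBP2KO cells. At both concentrations the lowest control sample was above the highest PCBP2KO sample, and in counts the control libraries held 66 to 783 of *Gpr26* and the PCBP2KO libraries 2 to 25. The fitted difference was 11.7-fold at 2.8 mM (log2 fold change, -3.55 ± 0.63, adjusted p = 0.00317) and 63.0-fold at 16.7 mM (-5.98 ± 0.68, adjusted p = 4.73e-05). It passed the test under every alternative, over a range of -3.77 to -3.25 at 2.8 mM and -6.51 to -5.30 at 16.7 mM, including without the 3 libraries that stand apart (-3.54 and -6.51). In sorted cells measured in bulk, fewer cells that express a gene and less of its RNA per cell cannot be told apart.

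The *Gpr26* gene spans 131567895 to 131596151 on the forward strand of chromosome 7, and a single transcript carried all of its counts. *Fgfr2* lies on the opposite strand and overlaps the gene, but no annotated exon of another gene overlaps its exons. Since PCBP2 binds runs of cytosine, the 3′ untranslated region (UTR) of each member was searched on the transcript strand for the window of 18 bases with the most C. The UTR of *Gpr26*, at 10106 bases, is longer than that of any other member, and only 0.316% of 14860 tested genes have one at least as long. Its richest window holds 16 C, a number reached in 1.79% of these genes, whose median is 11. Long UTRs offer more windows, so this count and the length are not separate facts. The windows of *Gpr26* and, for comparison, of the other orphan receptor and of *Adra2a* read as follows from 5′ to 3′, with runs of 3 or more C in capitals; all are from GENCODE vM39 transcripts.
Gpr26 (chr7:131588480-131588497, forward): CCCCCtaCCCCCCCCCCC
Gpr135 (chr12:72116351-72116368, reverse): tacatttccaCCCCtctc
Adra2a (chr19:54036985-54037002, forward): tgcgccgCCCCCtCCCCC
*Gpr135* shares the lowest count with *Chrm3*, with 9 C in its window, a number that 84.7% of the genes reach, while *Adra2a* holds 13 (21.5% of genes). A C-rich window is a description of the sequence and does not show binding.

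*Gpr135* was lower in PCBP2KO cells at both concentrations without passing the test. The study counts *Gpr135* among the genes decreased by *Pcbp2* deficiency at high glucose. Its fit had a batch term that was not used here, and the part of that term in the difference was not tested. Using the values above, the groups of *Gpr135* did not overlap at 2.8 mM (10.6 to 17.1 CPM in control, 3.76 to 10.2 CPM in PCBP2KO cells), as was so for 10.9% of all genes in either direction. They overlapped slightly at 16.7 mM, where the highest PCBP2KO sample (3.70 CPM) passed the lowest control sample (3.66 CPM). The log2 fold changes were -1.04 ± 0.33 (adjusted p = 0.137) and -1.20 ± 0.31 (adjusted p = 0.0615). Whether it was called depended on the setting at both concentrations. At 2.8 mM it was called without PCBP2KO replicate 2 (adjusted p = 0.0485). At 16.7 mM DESeq2 gave an adjusted p of 0.0073 and edgeR without the expression filter 0.0273, and it was called without control replicate 1 or PCBP2KO replicate 4 at 16.7 mM, or PCBP2KO replicate 2 or 5 at 2.8 mM (adjusted p, 0.0326 to 0.0447). *Gpr135* spans 72114750 to 72117899 on the reverse strand of chromosome 12 and has 1 annotated transcript in the files.

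The other 7 members were not called with knockout at either concentration. *Gcgr* was the highest of them in PCBP2KO cells at 16.7 mM (log2 fold change, 0.79 ± 0.27, adjusted p = 0.209) and at 2.8 mM (0.48 ± 0.30, adjusted p = 0.553). *Glp1r* was at -0.63 ± 0.25 at 2.8 mM (adjusted p = 0.28) and *Ffar1* at -0.70 ± 0.39 (adjusted p = 0.485), and both were slightly above 0 at 16.7 mM (0.12 ± 0.24 and 0.53 ± 0.37, adjusted p = 0.91 and 0.652). *Gipr*, *Chrm3*, *Adra2a* and *Sstr3* lay between -0.43 and 0.30 in the knockout comparisons, with adjusted p from 0.662 to 0.911.

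**Figure D4:**
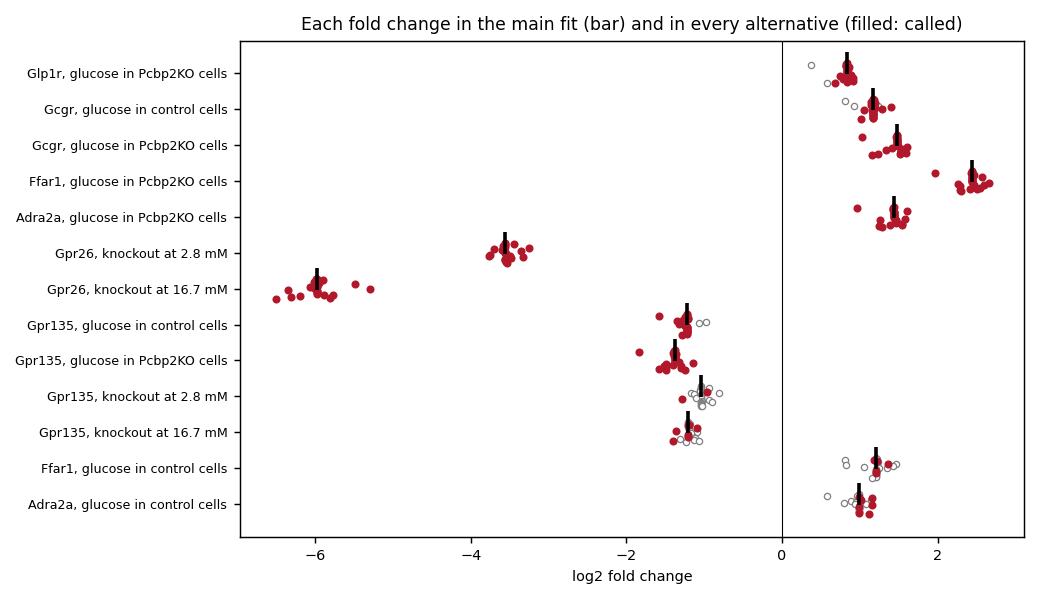
Log2 fold change of the called members, and of 4 member comparisons near the threshold, in the reported fit (black bar) and in every alternative (points; filled red where the call was made). *Gpr26* with knockout and *Ffar1* with glucose in PCBP2KO cells were called throughout, while *Gpr135* with knockout crossed the threshold with the setting.

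The transcripts behind these levels differed among members. *Glp1r* came almost wholly from its coding transcript, with a median of 99.97% of TPM, and *Sstr3* from its longer coding transcript (95.1%). *Gcgr* was carried by its coding transcript (72.9%) and 3 transcripts annotated as processed. For *Gipr* the largest share of TPM, 49.9%, went to a short transcript annotated for nonsense-mediated decay, 22.9% to the coding transcript and the rest to a pair annotated with retained introns. In estimated counts, which grow with length, the coding transcript of *Gipr* held 49.6%. The coding share of *Gipr* TPM was 23.8%, 22.7%, 22.2% and 24.8% in the 4 groups (control at 2.8 and 16.7 mM, PCBP2KO at 2.8 and 16.7 mM). *Chrm3* was spread over its main coding transcript (48.7%), a short processed transcript (30.2%) and 2 others. The 2 coding transcripts of *Adra2a* were split differently between glucose concentrations, the longer at 54.7 ± 4.32% (SD, n = 3) of TPM at 2.8 mM and 27.03 ± 14.7% (n = 4) at 16.7 mM in control cells, and at 67.1 ± 21.8% (n = 5) and 32.3 ± 8.50% (n = 5) in PCBP2KO cells. These shares were not tested, and they ranged from 16.3% to 98.8% over the samples. Gene sums are therefore the safer measure for *Adra2a* and *Gipr*.

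To place each member among other genes, log2 CPM were correlated over the 17 samples with all 13079 genes averaging at least 1 CPM. The samples share glucose and genotype groups, so these values are descriptions. *Ffar1* was most like the lncRNA *Gm10941* (r = 0.978) and *Slc28a2* (0.971), *Gcgr* most like *Kdm2b* (0.965) and its own antisense *Gm11789* (0.960), and *Adra2a* most like the purinergic receptor gene *P2ry6* (0.962) and *Gm20634* (0.953). *Glp1r* was most like *Dock8* (0.910) and *Acot11* (0.907), *Gpr135* most like *Acadsb* (0.941) and *Brms1l* (0.924). The members without a glucose or genotype call had weaker matches: *Gipr* with *Fgf1* (0.877) and *Fancc* (0.874), *Chrm3* with *Eno3* (0.885) and *Dmxl2* (0.867), and *Sstr3* with *Borcs8* (0.827) and *Smdt1* (0.813).

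*Gpr26* was most like *Crispld2* (r = 0.952) and *Dipk1a* (0.946). *Crispld2* was at 9.19 to 21.04 CPM and 21.4 to 139 CPM in control cells at 2.8 and 16.7 mM, against at most 0.117 and 0.0321 CPM in PCBP2KO cells. *Dipk1a* was at 8.35 to 19.1 and 8.62 to 26.7 CPM in control and at 2.09 to 2.77 and 1.55 to 2.53 CPM in PCBP2KO cells, with called differences at both concentrations (log2 fold change, -2.28 and -2.94, adjusted p = 0.000549 and 3.85e-05). Among the members themselves, *Ffar1* was most like *Adra2a* (0.910), then *Gcgr* (0.867) and *Glp1r* (0.855).

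Receptors of the same G protein classes were set beside the members, from lists chosen with results of these data known. Of 30 other Gs-coupled receptors 17 were tested. In control cells 4 rose and 2 fell with glucose: *Mc5r* (log2 fold change, 4.04), *Vipr1* (1.95) and *Gpr119* (1.34) rose, as did *Gpr3*, which was near 0 at 2.8 mM and at 1.19 ± 0.605 CPM (SD, n = 4) at 16.7 mM, and *Vipr2* (-2.61) and *Adora2b* (-1.17) fell. *Gpr3*, *Gpr119* and *Adora2b* are named after their values were seen. In PCBP2KO cells 5 rose and 2 fell, again including *Vipr1* (1.71), which binds vasoactive intestinal peptide, and *Vipr2* (-2.11). With knockout none of this list was called at 2.8 mM and 1, not named here, was lower at 16.7 mM.

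Of 40 other Gi-coupled receptors 25 were tested. With glucose 2 rose in control cells, *Ffar2* (1.49), for short-chain fatty acids, and *Gabbr2* (1.21), a subunit of the GABA receptor, and in PCBP2KO cells 8 rose and 1 fell. The largest rises there were of *Ptger3* (3.84), for prostaglandin E2, and *Ffar3* (3.32). With knockout *Ptger3* was lower at 2.8 mM, at 10.9 ± 4.72 CPM (SD, n = 3) in control and 0.611 ± 0.270 CPM (n = 5) in PCBP2KO cells (log2 fold change, -4.17, adjusted p = 2.29e-05). *Gabbr2* was lower at 16.7 mM, at 25.8 ± 10.6 CPM (n = 4) against 10.7 ± 2.54 CPM (n = 5) (-1.26, adjusted p = 0.0259), a call that was lost without control replicate 1, 2 or 3 or PCBP2KO replicate 1, 2 or 4 at 16.7 mM (adjusted p, 0.0507 to 0.12). Both of these Gi-coupled receptors were thus called at 1 concentration only, and whether their knockout differences differ between concentrations was not shown, since neither interaction was called. In 4 of 24 alternatives 1 gene of the Gi list had a called interaction.

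Of 30 other Gq-coupled receptors 20 were tested. With glucose 3 rose in control cells, *Oxtr* (3.50), for oxytocin, and the purinergic *P2ry6* (1.47) and *P2ry1* (1.43), and the same 3 genes in PCBP2KO cells (1.70, 2.68 and 1.75), where 3 others fell. The call of *Oxtr* in PCBP2KO cells was lost with total counts and without replicate 1, 2 or 3 at 2.8 mM or replicate 1 or 3 at 16.7 mM (adjusted p, 0.0609 to 0.0881). The 3 that fell were *Ffar4* (-0.92), which like *Ffar1* encodes a receptor for long-chain fatty acids, and, named after their values were seen, *Avpr1b* (-3.31) and *P2ry2*, which averaged 0.0753 CPM. No Gq-coupled receptor was called with knockout. The median log2 fold changes of the Gs, Gi and Gq lists were 1.27, 0.43 and -0.05 for glucose in control cells and 0.26, 0.46 and -0.25 in PCBP2KO cells, beside 0.04 and 0.01 for all genes. The shares called were 35.3%, 8% and 15% in control cells and 41.2%, 36% and 30% in PCBP2KO cells. Over all genes they were 13.8% and 23.8%.

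Behind the receptors, 26 of 28 G protein subunits were tested. With glucose 3 rose and 2 fell in control cells and 5 rose and 4 fell in PCBP2KO cells. That is 19.2% and 34.6% of those tested, beside 13.8% and 23.8% of all genes. *Gng12*, a γ subunit, went from 503 ± 34.2 CPM (SD, n = 3) to 1089 ± 133 CPM (n = 4) in control cells (log2 fold change, 1.11) and rose by 1.80 in PCBP2KO cells, while *Gnai2*, an inhibitory α subunit, fell by 1.08 and 0.90. *Gnb4* rose by 1.27 in control cells and *Gna14* by 2.80 in PCBP2KO cells. None of the subunits was called with knockout. Among 24 of 26 receptor kinases, arrestins and RGS proteins tested, the last of which speed the shutdown of Gi and Gq proteins, 5 rose and 0 fell with glucose in control cells, and 5 rose and 1 fell in PCBP2KO cells. These were 20.8% and 25% of those tested, the latter near the share of all genes. *Rgs16* rose by 3.04 and 2.79 and *Rgs4* by 2.87 and 2.60 on the log2 scale, and *Rgs16* was the only gene of this list called with knockout, higher at 2.8 mM (1.22 ± 0.30, adjusted p = 0.0349). That call was lost without any 1 of the control samples, or of PCBP2KO replicates 1 to 4, at 2.8 mM (adjusted p, 0.0511 to 0.191).

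Genes for islet peptides and transmitters were measured as well, and 7 of 10 were tested. *Gcg*, *Gip* and *Sst* encode ligands of the members, *Chat*, *Slc18a3*, *Th* and *Dbh* serve the synthesis or storage of their transmitters, and *Pyy*, *Cck* and *Adcyap1* encode peptides that act mainly on other receptors. None passed the test in control cells. In PCBP2KO cells *Gcg*, whose products glucagon and glucagon-like peptide 1 bind *Gcgr* and *Glp1r*, was at 4868 ± 3216 CPM (SD, n = 5) at 2.8 mM and 643 ± 469 CPM (n = 5) at 16.7 mM (log2 fold change, -2.92, adjusted p = 0.0025), *Pyy* fell by 1.88 (adjusted p = 0.0015), and *Th*, for catecholamine synthesis, rose by 0.86 (adjusted p = 0.00384). *Sst*, the ligand gene of *Sstr3*, did not pass (-1.22, adjusted p = 0.0672). *Gcg* and *Pyy* are also markers of α and pancreatic polypeptide cells. Both are counted in the marker sums of these cells, which stood highest in PCBP2KO cells at 2.8 mM. Those sums are therefore not separate evidence. *Chat*, *Slc18a3* and *Cck* were tested at averages of at most 2.01 CPM in any group without a call, and *Gip*, *Dbh* and *Adcyap1* were too low to test (at most 0.116 CPM in any sample). None of these genes was called with knockout at either concentration.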

How the data were processed

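RNA was measured by poly(A) RNA sequencing (Illumina Ultra Low Input kit) of sorted β cells. Per the labels and the study's methods the authors pseudoaligned reads with kallisto to the mouse reference transcriptome (GRCm39, listed as mm39); kallisto's version is not given in the sources used here. They deposited estimated counts and TPM of 142376 transcripts per sample, not normalized between samples except that TPM are scaled to effective length and a fixed total. Here these were added up over the transcripts of each gene, rounded to whole numbers and tested with edgeR 4.0.16 (R 4.3.3; TMM factors from 0.752 to 1.29, filterByExpr, quasi-likelihood F test, 4 group means, 17 samples), Benjamini-Hochberg adjusted over 22784 genes. SEs are the estimate divided by the root of its F statistic. Log2 CPM used a prior count of 2. The study's batch term was not used, since its levels are not given in the sources used here. The members and lists were chosen with earlier results of these data known. Named genes were the members, the islet peptide and transmitter genes tested, the 2 most like genes of each member and, per list and comparison, at most 3 called genes of the largest change averaging at least 1 CPM. Samples of one group differed by 32.3 to 380 times counting noise (chi-square per degree of freedom, 29 pairs), more than the same library sequenced again would. This does not show whether they came from separate animals or islet pools. Replicate numbers come from the labels. Samples that share a number were compared by how their log2 CPM deviated from the mean of their own group, and these deviations correlated at 0.199, 0.123 and 0.258 for glucose in control cells, and in each other comparison at least 1 pair was at 0.1 or below. In simulated data for the knockout at 2.8 mM over 22784 genes, edgeR called 42% of genes changed 2-fold and 94% of those changed 4-fold, with 8 false calls, and DESeq2 55% and 98% with 53 false calls. Alternatives were RLE factors, total counts, no filter, DESeq2, length-scaled counts, only the groups compared, a replicate block, each library left out and the 3 libraries that stand apart left out. Reference positions came from GENCODE vM39, newer than the files' transcript versions, by transcript ID without version (94.4% of 15746 coding genes matched). Protein sequences were not used here, and 1 sequence window and 1 receptor of the Gs list at 16.7 mM are not reported here.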

Additional observations from a re-analysis of the deposited data

Results flagged for a closer look

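A value was marked where the highest or lowest sample of a group of 4 or 5 lay farther from the rest than Dixon's 95% limit allows. Of 30 tested pairs of a gene (the 9 members and *Pcbp2*) and a group, 2 held such a value, and chance alone marks about 1 group in 20. *Gcgr* was at 171 CPM in replicate 5 of the PCBP2KO cells at 16.7 mM, where the next sample was at 95.7 CPM and the lowest at 72.3 CPM. *Chrm3* was at 7.07 CPM in replicate 5 of the PCBP2KO cells at 2.8 mM, where the other 4 samples lay between 14.2 and 16.9 CPM. The former is one of the 3 libraries that stand apart. No member's response to glucose was called different between genotypes.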

How the results depend on the processing

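Of 1116 recalculated log2 fold changes of the members (45 values), 1054 kept their direction and side of the threshold, 8 lost a call, 30 gained one and 24 changed sign. The number of members called for glucose in control cells (2) was 1 with total counts, 5 with DESeq2, 5 with a replicate block, 4 without the 3 libraries that stand apart and 0 to 4 with 1 library left out. It was 0 without control replicate 2 at 2.8 mM, where calls over all genes also fell, to 689 higher and 693 lower. With knockout at 2.8 mM (1) it was 2 with a replicate block and 1 to 2 with 1 library left out, and at 16.7 mM (1) it was 2 without a filter, with DESeq2 and with a replicate block, and 1 to 2 with 1 library left out. The gene gained was *Gpr135* (with the block -0.97, adjusted p = 0.0355, and -1.09, adjusted p = 0.0131), except that without control replicate 2 at 2.8 mM it was *Glp1r* (-0.94, adjusted p = 0.0338). Only for glucose in control cells did same-numbered samples all correlate above 0.1. For glucose in PCBP2KO cells they correlated at 0.0664, 0.171, 0.105, 0.0747 and 0.193, and different-numbered samples at 0.0445 or less. There the block also called *Gipr* (0.81, adjusted p = 0.00207). In the knockout comparisons some different-numbered pairs correlated more than same-numbered ones. For control replicate 1 these were 0.0961 against 0.0474 at 2.8 mM and 0.177 against 0.0835 at 16.7 mM. What the numbers stand for is not given in the sources used here. Over all genes, 1629 were called higher and 1524 lower for glucose in control cells. These counts were 2331 and 2444 with a replicate block, 2119 and 1782 with DESeq2 and 2271 and 2627 without the 3 libraries. DESeq2 called 210 and 625 (58 and 406) with knockout at 2.8 mM and 225 and 496 (66 and 323) at 16.7 mM. For the interaction (1 and 0) DESeq2 called 25 and 7, edgeR without a filter 13 and 2, with a replicate block 10 and 3 and without the 3 libraries 2 and 0. Calls over all genes with knockout at 16.7 mM were 38 and 200 with only the groups compared, and 237 and 350 without the 3 libraries. Ordered by CPM per kilobase, *Gipr* was at rank 3 and *Sstr3* at rank 2.

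The sign changes were all of values that were not called. For glucose in control cells they were *Glp1r* with total counts (-0.29) and without the 3 libraries (-0.0019), *Gipr* with total counts (-0.39) and no filter (-0.0037), and *Sstr3* with total counts (-0.40) and no filter (-0.0204). In PCBP2KO cells they were *Chrm3* (-0.30) and *Sstr3* (-0.38) with total counts. *Glp1r* with knockout at 16.7 mM was -0.0324 without the 3 libraries, and the *Sstr3* interaction -0.0079 with a replicate block. With 1 library left out, *Glp1r*, *Gipr* and *Sstr3* for glucose in control cells ranged from -0.22 to 0.37, -0.20 to 0.36 and -0.13 to 0.16, *Adra2a* with knockout at 2.8 mM from -0.29 to 0.037, *Glp1r* and *Sstr3* at 16.7 mM from -0.043 to 0.20 and -0.23 to 0.0512, and the interactions of *Sstr3* and *Gpr135* from -0.0588 to 0.23 and -0.40 to 0.0803. The cause was not tested. *Gcgr* for glucose in control cells (0.80, adjusted p = 0.115) and *Glp1r* in PCBP2KO cells (0.37, adjusted p = 0.261) lost their calls with total counts. With 1 library left out, calls for glucose in control cells were lost for *Mc5r*, *Vipr2*, *Gabbr2*, *P2ry6* and *Gnb4* in 4 or 5 of 7 cases each, for *Ffar2* and *Rgs4* without replicate 2 and for *Gnai2* without replicate 1 at 2.8 mM. At 2 to 25 counts of *Gpr26* per PCBP2KO library, its fold change is only roughly sized.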
